A study of Homo sapiens with 9 samples.

Results

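C9ko is an edited line of CAL27 cells, an established line derived from a tongue squamous cell carcinoma, and it is set here against the Control cells of the same line. The comparison takes the 2 samples titled C9ko and the 3 samples titled Control, 5 of the 9 samples in the series, and covers 17100 genes with at least 1 TPM (transcripts per 1000000 in the library, scaled by transcript length) in at least 2 distinct libraries. All groups are CAL27 cells grown in DMEM with serum, and polyA RNA was sequenced with strand-marking libraries. Control cells carry no named edit. C9ko, A2ko and A8ko are CRISPR knockouts, and the sequence each edit removed, and whether C9ko is 1 clone or a pool, are not given in the sources used here, so no targeted gene could be read as a check of the labels. The series title speaks of an enhancer that drives tumour growth in head and neck squamous carcinoma. The A8ko pair of files was identical value for value, as was the A2ko pair, and each pair was counted as 1 library.

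Squamous cells of the mouth lining divide in a basal layer that holds KRT5 and KRT14, and they switch to other keratins, such as KRT4 and KRT13 in mucosa and KRT1 and KRT10 in skin, as they leave it. The same cells answer injury, microbes and cytokines by secreting chemokines, complement and antimicrobial proteins, much of it through the transcription factor NF-kB, and they answer interferons by raising antiviral and antigen-presenting genes. Carcinomas of this lineage keep parts of each programme.

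The label of the cells was checked against 10 squamous and epithelial markers (EPCAM, CDH1, KRT5, KRT14, KRT17, TP63, DSG3, DSP and SFN among them), and all 10 stood above 1 TPM in every library of the comparison. Their summed level was 15310 to 16470 TPM in Control and 9874 to 10070 TPM in C9ko. Each library held 15658 to 15954 genes at 1 TPM or more. Over all tested genes, Control libraries correlated with each other at 0.991 or above on the log2(TPM + 1) scale and the C9ko pair at 0.9869, and the SD of the difference between libraries was 0.276 to 0.285 within Control, 0.349 within C9ko and 0.519 to 0.568 between the groups. These correlations are across genes, which are not independent replicates. Transcripts of the mitochondrial genome made up 23.1%, 26.9% and 23.5% of TPM in Control (24.5% ± 2.11, SD, n = 3) and 20.2% and 17.9% in C9ko. The exact two-sided permutation test over the 10 splits of these libraries gave p = 0.2, the smallest value that 3 against 2 libraries allow. Because TPM values share a fixed total, that difference bears on every other gene's share.

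In C9ko, most tested members of the lists of cytokines, complement and antimicrobial defence, and antigen presentation were called higher than in Control (19 of 24, 17 of 23, and 12 of 13 for HLA class II), and most keratins of the upper squamous layers and cornified envelope proteins were called lower (5 of 6 and 12 of 20). The extremes were C15orf48, at 138 and 144 TPM in C9ko against 2.26 to 2.78 in Control, and KRT4, at 0.857 and 1.37 TPM in C9ko against 197 to 202 in Control. In all, 5038 of 17100 genes (29.5%) were called at an adjusted p under 0.05 by limma, 3770 of them higher (22.0%) and 1268 lower (7.42%). A difference of at least 1 log2 unit was reached by 556 higher genes (3.25%) and 294 lower genes (1.72%). Median-of-ratios scaling moved the median difference of all tested genes from 0.11 to -0.01 log2 units and gave 2626 higher and 2187 lower genes, and leaving out the mitochondrial genes gave 2899 higher and 1878 lower. The balance of rises and falls therefore depends on the scaling, and list medians below are set beside the 0.11 of all tested genes. List counts are to be read beside the 22.0% of all tested genes called higher and the 7.42% called lower. They include members that passed the 1 TPM filter only through the group where they are high. Without C9ko replicate 2 the count was 3301 genes, and the lone C9ko library was then assumed to vary like the other groups.

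**Figure D1:**
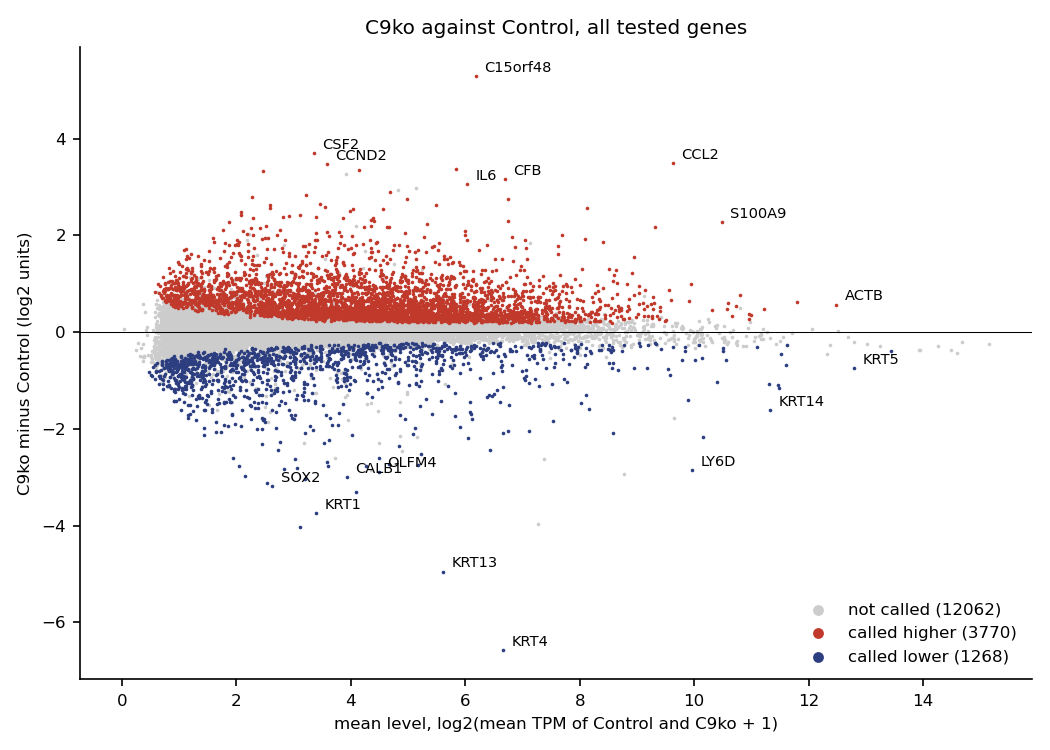
Difference between C9ko and Control (log2 units of TPM + 1, vertical) against the mean level over both groups (horizontal) for the 17100 tested genes, each point 1 gene, with genes called higher in red, called lower in blue and others in grey. C15orf48 lies highest at 5.30 and KRT4 lowest at -6.58, and CCL2, at 3.50, and LY6D, at -2.85, are among the abundant transcripts that moved most.

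The 12 largest rises among genes reaching 5 TPM were C15orf48, CSF2, CCL2, CCND2, PDZK1IP1, C1QTNF1, CFB, IL6, L1CAM, CXCL14, LTF and S100A7. C15orf48, a mitochondrial respiratory chain protein related to NDUFA4 and known to be induced in inflammation, stood at 2.78, 2.26 and 2.76 TPM in Control and at 138 and 144 TPM in C9ko, a difference of 5.30 ± 0.09 log2 units (SE; adjusted p = 1.97e-06, limma). CSF2, the growth factor GM-CSF, stood at 0.203, 0.530 and 0.679 TPM in Control and at 17.6 and 18.3 TPM in C9ko, a difference of 3.70 ± 0.16 (adjusted p = 2.17e-05). CCL2, a chemokine for monocytes, was abundant in both groups, at 129, 136 and 118 TPM in Control and 1432 and 1466 TPM in C9ko (3.50 ± 0.08, adjusted p = 5.08e-06). In each of these genes the C9ko libraries lay close together, and above all Control libraries as the naming rule requires. CCND2, cyclin D2 of the G1 phase, rose from 1.15, 0.851 and 0.891 TPM in Control to 19.8 and 22.1 TPM in C9ko (3.48 ± 0.12). IL6, the inflammatory cytokine, rose from 12.1, 14.1 and 12.9 TPM to 110 and 122 TPM (3.06 ± 0.08). L1CAM, a neural cell adhesion molecule also found in invasive carcinomas, rose from 4.60, 5.33 and 5.25 TPM to 44.2 and 44.4 TPM (2.90 ± 0.09). PDZK1IP1, a small membrane protein of epithelia, rose by 3.38 ± 0.17 log2 units, and CXCL14, a chemokine of epithelia, by 2.84 ± 0.11. S100A7 was the least even of the 12, at 140 and 234 TPM in C9ko against 21.2, 30.9 and 26.4 TPM in Control (2.76 ± 0.23, adjusted p = 0.000281).

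The 12 largest falls were KRT4, KRT13, KRT1, SOX2, ATP6V1B1, KRTDAP, CALB1, PEDS1-UBE2V1, OLFM4, LY6D, BMP7 and POU2AF3. SOX2, a transcription factor of squamous and stem cells, stood at 10.5, 10.1 and 9.87 TPM in Control and at 0.319 and 0.150 TPM in C9ko (-3.18 ± 0.12, adjusted p = 1.77e-05). LY6D, a membrane protein of squamous epithelium, was the most abundant of the 12, at 1832, 1641 and 1771 TPM in Control and 238 and 244 TPM in C9ko (-2.85 ± 0.07). OLFM4, a secreted glycoprotein of epithelia, stood at 41.0, 37.1 and 37.7 TPM in Control and 4.21 and 4.53 TPM in C9ko (-2.88 ± 0.08). As the naming rule requires, no C9ko library reached the lowest Control library in any of the 12. CALB1, a calcium-binding protein, fell from 23.6, 27.6 and 27.5 TPM to 2.90 and 1.94 TPM. BMP7, a secreted signal of the TGF-beta family, fell from 12.4, 10.4 and 11.6 TPM to 0.830 and 0.664 TPM. ATP6V1B1, a subunit of the proton pump of acid-secreting cells, fell from 10.0, 8.25 and 9.79 TPM to 0.170 and 0.221 TPM. POU2AF3, a coactivator of the tuft cell factor POU2F3, fell from 15.1, 13.3 and 12.5 TPM to 1.34 and 0.846 TPM. Its relative POU2AF2, named here after its values were seen, stood at 3.66, 3.59 and 2.97 TPM in Control and was listed at 0 in both C9ko libraries, and POU2F3 itself differed by -0.60 log2 units (adjusted p = 0.0399, and 0.102 to 0.143 without C9ko replicate 1, C9ko replicate 2, Control replicate 2 or Control replicate 3). PEDS1-UBE2V1 is a read-through transcript that shares its sequence with PEDS1 and UBE2V1, so its listing at 0 in C9ko, against 5.71 to 7.56 TPM in Control, is uncertain. Genes that overlap another gene on the same strand, such as SOX2 within SOX2-OT, CFB beside C2 and KRT7 beside KRT86, may likewise share reads.

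**Figure D2:**
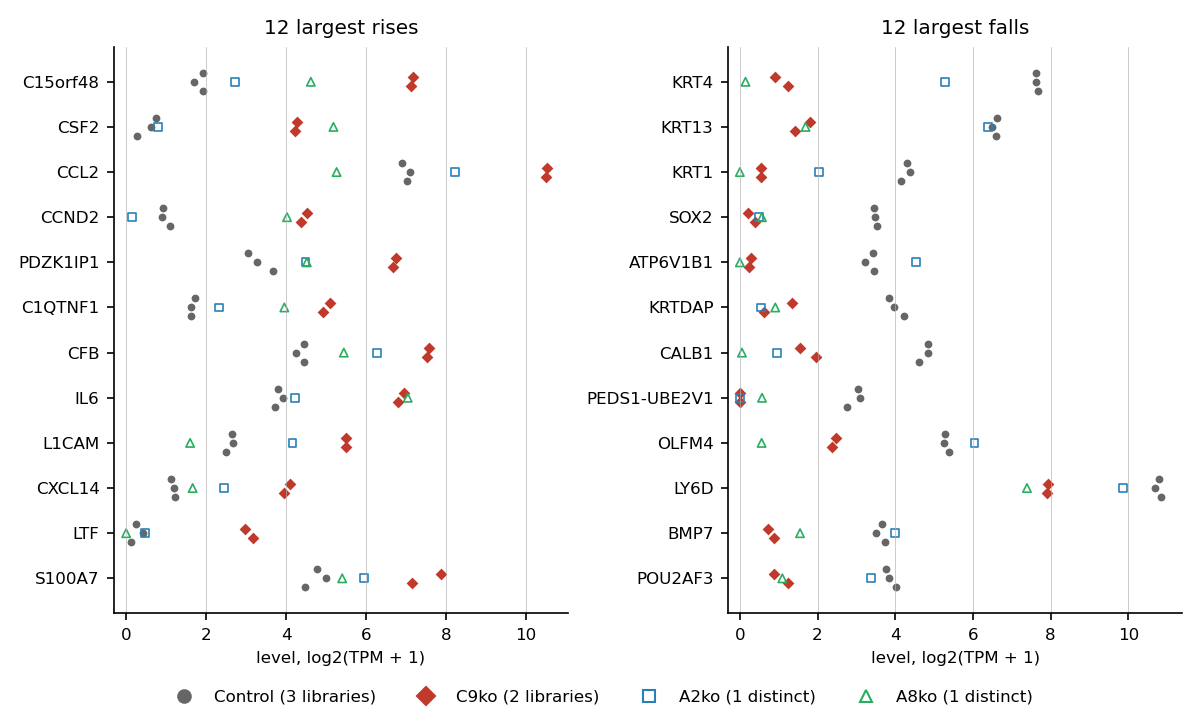
Level of the 12 largest rises (left) and 12 largest falls (right) in each distinct library, as log2(TPM + 1), with Control as grey circles, C9ko as red diamonds, A2ko as blue squares and A8ko as green triangles. By the rule that chose them, the 2 C9ko libraries lie apart from the 3 Control libraries for every gene shown, and the A8ko library lies near C9ko for IL6, KRT13, KRTDAP and SOX2 but not for CCL2 or LTF.

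Among genes called with both C9ko libraries beyond all Control libraries, the largest rises in TPM units were ACTB, S100A9 and MT2A, and the largest falls KRT5, MT-ATP8 and KRT14. Some mitochondrial mRNAs differed by more TPM and were not called, such as MT-CO2 at 26970, 31620 and 26710 TPM in Control and 23040 and 19300 TPM in C9ko (adjusted p = 0.0731). ACTB, cytoskeletal actin, stood at 4577, 4278 and 4998 TPM in Control and at 6629 and 7077 TPM in C9ko (0.57 ± 0.10 log2 units, adjusted p = 0.00718, and 0.0541 without C9ko replicate 2). S100A9, a subunit of the antimicrobial protein calprotectin, stood at 515, 488 and 472 TPM in Control and at 2406 and 2349 TPM in C9ko. KRT5 stood at 8716, 9147 and 8887 TPM in Control and at 5428 and 5232 TPM in C9ko. KRT14 stood at 3549, 3796 and 4286 TPM in Control and at 1283 and 1247 TPM in C9ko (-1.61 ± 0.10, adjusted p = 8.16e-05). MT-ATP8, a mitochondrially encoded subunit of ATP synthase, differed by -0.38 ± 0.11 (adjusted p = 0.0356), and lost its call when any single library was left out (adjusted p 0.0627 to 0.150).

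Sequence upstream of the start was looked at because many of the rising genes are known targets of NF-kB and many epithelial genes of AP-1. The 250 bases before the RefSeq start (GRCh38.p14) were found for 11082 of the 17100 tested genes by symbol or synonym, and for 111 of the genes named by rule, 73 of them higher and 38 lower. They were searched on both strands for the NF-kB consensus site, for the AP-1 site TGANTCA and for TATAAA. The NF-kB site was in 5.98% of all these windows, in 9.97% of genes higher by at least 1 log2 unit (38 of 381) and in 3.73% of genes lower by as much (6 of 161). The AP-1 site was in 4.29% of all windows, in 8.66% of the higher and in 14.3% of the lower genes. TATAAA was in 5.56% of all windows, in 12.3% of the higher and in 16.8% of the lower genes. Of the higher members with a window, the NF-kB site was in 6 of 15 cytokines and chemokines (40.0%), 5 of 15 NF-kB subunits and targets (33.3%), 5 of 23 interferon genes (21.7%) and 1 of 13 acute phase and defence genes (7.69%). The AP-1 site was in 4 of the same 15 cytokines and chemokines (26.7%) and 0 of the 15 NF-kB subunits and targets. It was in 2 of the 23 interferon genes (8.7%) and 3 of the 13 acute phase and defence genes (23.1%). Among the named genes, the NF-kB site was in 9 of the 73 higher genes and 1 of the 38 lower genes. The AP-1 site was also in 9 of the 73 higher genes, and in 6 of the 38 lower genes. The list of NF-kB subunits and targets was made of genes already tied to NF-kB. Shares among list members that were not called higher were not computed. List membership and the rise in C9ko can therefore not be told apart in these shares. A match is a run of letters in a window and was not tested as a binding site.

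The windows of the 3 named rises of largest difference that hold an NF-kB match, and of the 3 named falls of largest difference that hold an AP-1 match, are shown 5′ to 3′ on the strand of the gene, with the matches in capitals. PDZK1IP1 (chr1:47190037-47190286, minus strand) has its NF-kB match beginning 219 bases before the start, IL6 (chr7:22726950-22727199, plus strand) 73 bases before it and CXCL11 (chr4:76036071-76036320, minus strand) 76 bases before it. In CXCL11 an AP-1 match begins at 87 bases and TATAAA at 42 bases before the start. KRTDAP (chr19:35490465-35490714, minus strand) has its AP-1 match at 82 and TATAAA at 30 bases, OLFM4 (chr13:53028563-53028812, plus strand) its AP-1 match at 137 bases, and MMP10 (chr11:102780629-102780878, minus strand) its AP-1 match at 67 and TATAAA at 31 bases before the start.
PDZK1IP1: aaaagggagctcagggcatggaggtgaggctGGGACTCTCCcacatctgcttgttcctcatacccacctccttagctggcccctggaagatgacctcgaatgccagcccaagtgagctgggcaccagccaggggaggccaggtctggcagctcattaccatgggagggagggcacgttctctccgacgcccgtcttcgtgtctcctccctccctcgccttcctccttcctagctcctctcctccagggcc
IL6: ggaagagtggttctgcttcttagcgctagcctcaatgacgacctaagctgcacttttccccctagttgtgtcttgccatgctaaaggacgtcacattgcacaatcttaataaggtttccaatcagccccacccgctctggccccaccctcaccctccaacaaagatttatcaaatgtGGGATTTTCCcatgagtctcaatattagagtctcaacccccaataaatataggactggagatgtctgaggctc
CXCL11: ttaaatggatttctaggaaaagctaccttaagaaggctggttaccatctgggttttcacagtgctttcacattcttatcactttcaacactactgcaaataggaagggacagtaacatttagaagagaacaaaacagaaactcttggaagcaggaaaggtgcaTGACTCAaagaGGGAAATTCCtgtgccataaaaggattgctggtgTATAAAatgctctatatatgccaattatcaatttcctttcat
KRTDAP: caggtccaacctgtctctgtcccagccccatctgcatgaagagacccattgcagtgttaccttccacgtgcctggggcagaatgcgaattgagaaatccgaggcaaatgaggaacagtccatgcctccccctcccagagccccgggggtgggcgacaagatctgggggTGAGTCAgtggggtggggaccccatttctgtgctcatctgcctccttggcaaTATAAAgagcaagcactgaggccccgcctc
OLFM4: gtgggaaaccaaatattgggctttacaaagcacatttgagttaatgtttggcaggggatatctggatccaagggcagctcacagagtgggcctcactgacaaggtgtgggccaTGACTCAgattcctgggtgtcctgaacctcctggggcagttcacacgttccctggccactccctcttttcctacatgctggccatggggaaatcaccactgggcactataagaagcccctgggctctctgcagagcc
MMP10: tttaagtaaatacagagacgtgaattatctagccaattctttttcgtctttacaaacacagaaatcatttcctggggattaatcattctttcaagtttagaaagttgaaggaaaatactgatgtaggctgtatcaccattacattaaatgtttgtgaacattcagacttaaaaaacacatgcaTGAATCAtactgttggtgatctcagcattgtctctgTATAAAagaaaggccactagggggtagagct
IL6, CXCL11 and PDZK1IP1 rose in C9ko by 3.06, 2.75 and 3.38 log2 units, while KRTDAP, OLFM4 and MMP10 fell by 3.03, 2.88 and 2.28 log2 units.

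Keratins are the intermediate filament proteins that mark squamous layers, and members of the upper, basal and wound-associated groups were called lower while KRT7, KRT8, KRT18 and KRT80 were called higher. Of 6 tested keratins of the layers above the basal one, 5 were called lower (KRT4, KRT13, KRT1, KRT3 and KRT10) and 1 higher (KRT80), with a median of -2.57 log2 units against 0.11 over all tested genes. KRT4, the mucosal partner of KRT13, stood at 202, 198 and 197 TPM in Control and at 1.37 and 0.857 TPM in C9ko (-6.58 ± 0.11, adjusted p = 1.97e-06, limma). KRT13 stood at 95.0, 88.7 and 97.2 TPM in Control and at 1.68 and 2.50 TPM in C9ko (-4.95 ± 0.12). KRT1, of the epidermal layers, stood at 16.8, 19.8 and 18.9 TPM in Control and at 0.459 and 0.464 TPM in C9ko. KRT3 passed the filter through the Control libraries alone, so it could hardly be called higher. KRT80 was the exception, at 57.4, 54.0 and 52.5 TPM in Control and 196 and 217 TPM in C9ko (1.90 ± 0.07). Of the keratins of the basal layer and of simple epithelia, KRT15, KRT14, KRT5 and KRT19 were lower and KRT7, KRT18 and KRT8 higher. KRT19, at -0.56 (adjusted p = 0.0193), had adjusted p-values of 0.0516 to 0.0832 without C9ko replicate 1, C9ko replicate 2, Control replicate 1 or Control replicate 3. KRT15, a basal keratin, stood at 1886, 1803 and 1925 TPM in Control and at 412 and 419 TPM in C9ko (-2.17 ± 0.07). KRT8 and KRT18 form the filament of simple epithelia, and both stood at more than double their Control level: KRT18 at 246, 220 and 224 TPM against 570 and 553 TPM, and KRT8 at 218, 237 and 251 TPM against 559 and 512 TPM. KRT7, another simple-epithelium keratin, rose from 5.80, 6.96 and 6.33 TPM to 35.0 and 30.2 TPM (2.19 ± 0.10). Of the 5 keratins of wounded and hyperproliferative epithelium, KRT16, KRT6A and KRT6C were lower and KRT6B and KRT17 were not called (-0.15 and -0.03). Under median-of-ratios scaling 4 of these 5 were lower. The near-identical sequences of KRT6A, KRT6B and KRT6C leave the split of reads among them uncertain.

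The cornified envelope, the cross-linked protein shell of the outermost squamous layers, had 12 of 20 tested members lower and 4 higher (median -0.63). SPRR1B, an envelope precursor, stood at 221, 215 and 228 TPM in Control and at 53.9 and 51.7 TPM in C9ko (-2.05 ± 0.06). KRTDAP, a keratinocyte differentiation protein, stood at 17.8, 14.6 and 13.3 TPM in Control and at 0.533 and 1.55 TPM in C9ko (-3.03 ± 0.23). SCEL, which encodes sciellin of the envelope, fell from 9.66, 8.68 and 9.46 TPM to 1.37 and 1.88 TPM. The 4 that rose were SPRR3, CASP14, CNFN and DMKN, by 1.53, 1.27, 1.10 and 0.55 log2 units. CASP14 passed the filter through the C9ko libraries alone, so it could hardly be called lower. Among the lower members, IVL and SBSN passed it through the Control libraries alone. SPRR3 stood at 3.24 and 4.47 TPM in C9ko and under 1 TPM in each Control library. Among transcription factors of squamous identity, 10 of 22 tested were lower and 6 higher (median -0.07). The share higher was near the 22.0% of all tested genes, and the share lower was above their 7.42%. Next to SOX2, ZNF750, a driver of terminal differentiation, fell from 14.1, 14.1 and 14.5 TPM to 4.69 and 4.31 TPM (-1.47 ± 0.08). FOXN1, PAX9, ELF3 and KLF5 fell by 1.09, 0.99, 0.91 and 0.84 log2 units. OVOL1, a repressor active as cells leave the basal layer, rose from 6.001, 5.37 and 6.49 TPM to 14.9 and 13.6 TPM (1.13 ± 0.10), and KLF4, a factor of barrier formation, rose by 0.64. TP63, the master factor of basal squamous cells, was not called, at 271, 274 and 296 TPM in Control and 308 and 313 TPM in C9ko (0.15 ± 0.07, adjusted p = 0.144).

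Of 11 tested desmosome genes, whose products rivet neighbouring cells together, 6 were lower and none higher (median -0.31). PKP1, a plaque protein of the upper layers, stood at 159, 171 and 184 TPM in Control and at 40.9 and 40.5 TPM in C9ko (-2.04 ± 0.07, adjusted p = 1.64e-05). DSG3, the basal desmosomal cadherin, fell from 37.3, 34.7 and 39.0 TPM to 16.6 and 18.2 TPM, and DSP, desmoplakin, from 182, 167 and 171 TPM to 87.0 and 87.9 TPM. DSC2 differed by -0.60, with an adjusted p of 0.0379 that became 0.144, 0.0820 and 0.0637 without C9ko replicate 1, C9ko replicate 2 and Control replicate 1. DSG2, the desmosomal cadherin of simple epithelia, was not called (0.06). Of 16 hemidesmosome, laminin and integrin genes, 13 were higher and none lower (median 0.68), or 12 higher and 1 lower under median-of-ratios scaling. LAMB3 and LAMA3, chains of basement membrane laminin, rose by 0.93 and 0.70. ITGB6, an integrin subunit that binds latent TGF-beta, rose from 20.7, 20.1 and 22.4 TPM to 48.1 and 52.8 TPM (1.22 ± 0.08), ITGB1 by 1.005 and ITGAV by 0.97.

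**Figure D3:**
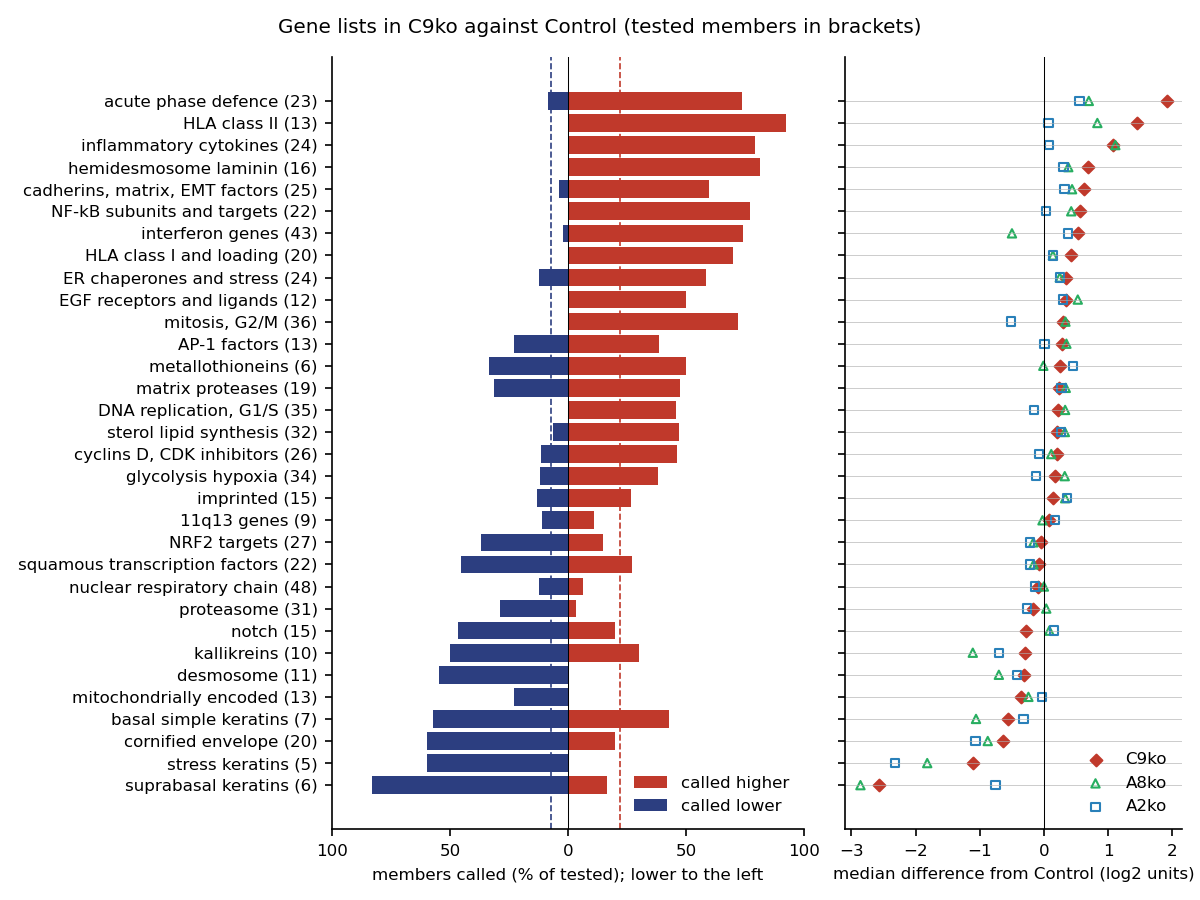
Left, the percentage of tested members of each gene list called higher (red, to the right) or lower (blue, to the left) in C9ko, with the number tested in brackets and dashed lines at the 22.0% and 7.42% of all tested genes. Right, the median difference of each list from Control in C9ko (red diamonds), A8ko (green triangles) and A2ko (blue squares), in log2 units. Acute phase and defence genes have the highest C9ko median at 1.91 and suprabasal keratins the lowest at -2.57. The knockouts share the Control libraries.

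Cytokines and chemokines had 19 of 24 tested members higher and none lower (median 1.08 against 0.11), or 18 higher and 1 lower under median-of-ratios scaling. The summed level of the 31 listed genes was 877 to 914 TPM in Control and 2829 to 2961 TPM in C9ko. Besides CSF2, CCL2 and IL6, the receptor CXCR3's ligand CXCL11 stood at 8.21, 6.99 and 6.27 TPM in Control and at 51.6 and 55.7 TPM in C9ko (2.75 ± 0.11, adjusted p = 1.93e-05). IL32, a cytokine of epithelial inflammation, rose from 12.1, 11.01 and 11.5 TPM to 76.4 and 77.1 TPM, and TNF from 1.38, 1.18 and 1.67 TPM to 11.3 and 12.2 TPM. CXCL8, CXCL1 and LIF rose by 1.70, 1.76 and 1.79 log2 units. The 5 not called were IL18, TNFSF10, CXCL2, CXCL3 and CCL5, between -0.10 and 0.40. Of 22 NF-kB subunits, inhibitors and targets, 17 were higher and none lower (median 0.57), or 14 and none under median-of-ratios scaling. ICAM1, the leukocyte adhesion receptor, stood at 23.8, 22.7 and 23.3 TPM in Control and at 103 and 101 TPM in C9ko (2.08 ± 0.06, adjusted p = 7.27e-06). TNFAIP3, which switches NF-kB signalling off, rose from 36.1, 33.2 and 34.5 TPM to 114 and 115 TPM (1.70 ± 0.06). SOD2, the mitochondrial superoxide dismutase, rose by 2.02, IRAK2, a kinase of interleukin-1 signalling, by 1.74, the subunit RELB by 0.95 and the inhibitor NFKBIA by 0.81. The subunits NFKB1 and REL, at 0.46 each, were not called. IRAK2 lies in a stretch of chromosome 3, described below, where most tested genes were higher.

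Acute phase, complement and antimicrobial genes had the highest median of all lists (1.91), with 17 of 23 tested members higher and 2 lower (4 lower under median-of-ratios scaling). CFB, complement factor B of the alternative pathway, stood at 20.9, 17.8 and 20.7 TPM in Control and at 181 and 190 TPM in C9ko (3.17 ± 0.08, adjusted p = 6.87e-06). C3, the central complement protein, rose from 105, 113 and 121 TPM to 444 and 417 TPM (1.92 ± 0.08). S100A8, the partner of S100A9, rose from 256, 210 and 221 TPM to 1025 and 1051 TPM. LTF, the iron-binding protein lactoferrin, was near 0 in Control, at 0.0955, 0.346 and 0.190 TPM, and stood at 7.95 and 6.87 TPM in C9ko (2.80 ± 0.16). LTF and PIGR, both counted as higher, passed the filter through the C9ko libraries alone. SAA1, serum amyloid A, rose by 2.56, a value that shares near-identical sequence with SAA2 (2.31). The 2 that fell were PI3, the elastase inhibitor elafin, from 92.4, 90.2 and 99.8 TPM to 25.9 and 21.0 TPM, and the protease inhibitor SERPINA3, by 0.89.

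Interferon-stimulated genes were higher for 32 of 43 tested members and lower for 1, IFITM2 (median 0.52), or 27 higher and 2 lower under median-of-ratios scaling. The list's median lay below that of the cytokines. RSAD2, an antiviral enzyme, stood at 7.07, 7.16 and 8.20 TPM in Control and at 29.4 and 32.4 TPM in C9ko (1.91 ± 0.09, adjusted p = 3.54e-05), and its neighbour CMPK2, a nucleotide kinase, at 8.96, 9.21 and 9.47 TPM against 29.2 and 27.9 TPM. RIGI, the cytoplasmic RNA sensor, rose from 26.9, 23.8 and 26.1 TPM to 75.8 and 73.8 TPM (1.51 ± 0.07). It lies in a stretch of chromosome 9, described below, where most tested genes were higher. OASL rose by 1.15, ISG15 by 0.81 and IFIT1 by 0.65. MX1, at 0.35 (adjusted p = 0.0162), had adjusted p-values of 0.0564 to 0.0792 without C9ko replicate 1, C9ko replicate 2 or Control replicate 3, and 0.0528 under median-of-ratios scaling. The transcription factors IRF1, STAT2 and IRF9, at 0.02, 0.13 and 0.45, were not called.

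HLA class II genes, which present antigen to helper T cells, were higher for 12 of 13 tested members (median 1.44), or 11 under median-of-ratios scaling. CD74, the class II chaperone, stood at 243, 244 and 255 TPM in Control and at 725 and 743 TPM in C9ko (1.56 ± 0.06, adjusted p = 1.77e-05). HLA-DPA1 stood at 8.54, 8.54 and 8.24 TPM in Control and at 29.3 and 37.6 TPM in C9ko, and HLA-DRB1 at 10.98, 12.1 and 11.5 TPM against 39.0 and 40.5 TPM. CIITA, the class II transactivator, rose from 7.29, 6.50 and 6.72 TPM to 9.79 and 10.4 TPM (0.50 ± 0.09, adjusted p = 0.00617). Class I and peptide-loading genes were higher for 14 of 20 tested members (median 0.42), or 13 higher and 1 lower under median-of-ratios scaling. HLA-B showed the widest gap between C9ko libraries, at 387 and 228 TPM against 97.4, 75.5 and 85.2 TPM in Control (1.78 ± 0.22, adjusted p = 0.00132). B2M, the shared light chain, rose by 0.61, TAP1, a peptide transporter, by 0.72 and NLRC5, the class I transactivator, by 0.64. HLA genes resemble each other closely and vary between genomes, so values of single HLA genes are uncertain.

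**Figure D4:**
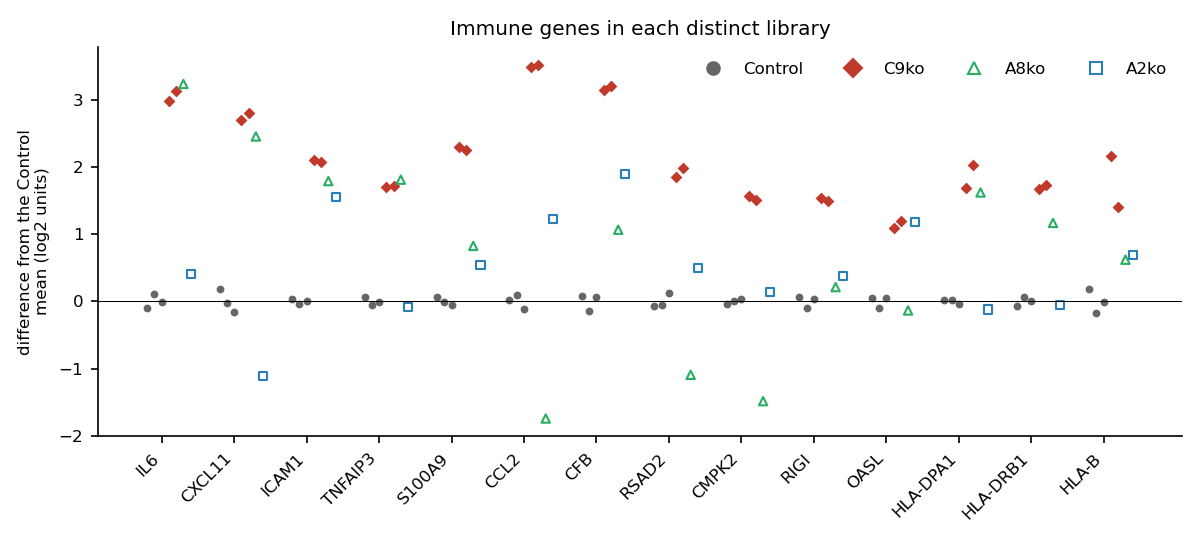
Difference of each distinct library from the mean of the Control libraries (log2 units of TPM + 1) for 14 immune genes, each mark 1 library, with Control in grey, C9ko in red, A8ko in green and A2ko in blue. Both C9ko libraries lie above the 3 Control libraries for every gene. A8ko lies more than 1 log2 unit below the Control mean for CCL2, RSAD2 and CMPK2, and A2ko for CXCL11. Some other genes lie below it by less in A8ko or A2ko.

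The other knockouts are compared only where they show how C9ko differs. The contrasts are of the same limma fit, in which the lone library is assumed to vary like the rest. The A2ko library held 16716 genes at 1 TPM or more, against 15556 in A8ko and 15658 to 15954 in Control and C9ko. The part of this in the comparisons was not tested. C9ko differed from A8ko at 1643 of 17100 genes (9.61%) and from A2ko at 5014 genes (29.3%). Interferon genes set C9ko apart from A8ko: 41 of 43 differed, all 41 higher in C9ko, and the list's median difference from Control was 0.52 in C9ko and -0.50 in A8ko. MX1, an antiviral GTPase, stood at 104 and 106 TPM in C9ko and 32.5 TPM in A8ko, a difference of 1.66 log2 units. A2ko shared the rise of interferon genes over Control, with a list median of 0.377 in its lone library. Acute phase and defence genes differed from A8ko at 19 of 23 members, 17 of them higher in C9ko. C15orf48 stood at 23.5 TPM in A8ko and 5.62 TPM in A2ko, and C9ko exceeded them by 2.53 and 4.42 log2 units. IL6, at 130 TPM in A8ko, did not differ between C9ko and A8ko at the threshold (-0.18, adjusted p = 0.414). KRT13 stood at 2.23 TPM in A8ko and 83.1 TPM in A2ko, and C9ko fell below A2ko by 4.78 log2 units (adjusted p = 2.43e-05). SOX2, at 0.483 TPM in A8ko and 0.404 TPM in A2ko, was not called different, with C9ko minus A8ko at -0.27 and C9ko minus A2ko at -0.19 (adjusted p = 0.385 and 0.421). All 5 keratins of wounded epithelium differed from both knockouts, with C9ko above A8ko for 5, and above A2ko for 3 and below it for 2, KRT16 and KRT17.

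In a list of 25 tested cadherins, matrix proteins and factors of epithelial-mesenchymal transition, the loss of epithelial form seen in invading tumours, 15 were higher and 1 lower (median 0.63). TGFB2, a TGF-beta ligand, stood at 6.74, 5.63 and 6.04 TPM in Control and at 33.1 and 35.3 TPM in C9ko (2.31 ± 0.09, adjusted p = 1.83e-05). PMEPA1, a target and inhibitor of TGF-beta signalling, rose from 4.56, 4.76 and 4.84 TPM to 21.5 and 22.1 TPM, and the matrix glycoprotein FN1 from 9.06, 7.90 and 8.37 TPM to 29.98 and 36.4 TPM. TNC, tenascin-C, rose by 1.61. The members did not move as the list's name would have it: CDH1, the epithelial cadherin, rose by 0.74 as did the mesenchymal CDH2 by 1.04, the factors SNAI2 (0.03) and TWIST1 (0.33) were not called, and TGFBI fell by 0.66. Of 19 matrix proteases and inhibitors, 9 were higher and 6 lower (median 0.23). The collagenase MMP13 stood at 62.6, 59.8 and 63.6 TPM in Control and at 8.54 and 8.30 TPM in C9ko (-2.74 ± 0.06, adjusted p = 5.6e-06), and the stromelysin MMP10 at 18.4, 17.3 and 18.6 TPM against 3.01 and 2.84 TPM. MMP7, MMP1 and MMP12 fell by 1.61, 1.02 and 0.99. The protease inhibitors TIMP2 and TIMP1 rose by 1.85 and 1.07, and PLAUR, the receptor of urokinase, rose from 19.6, 17.2 and 18.95 TPM to 64.3 and 69.2 TPM (1.79 ± 0.08). Of 10 tested kallikreins, serine proteases that shed the outer squamous layer, and their inhibitors, 3 were higher and 5 lower. Over all tested genes the shares were 22.0% and 7.42%. Fewer of the 10 were called when either C9ko replicate was left out. The lower genes include the inhibitor SPINK5, at -1.17. KLK11 fell by 1.76, and KLK9 and KLK5 rose by 1.05 and 0.88.

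Of 12 tested genes of the EGF receptor family, its ligands and its regulators, 6 were higher and none lower (median 0.34). The 6 include the negative regulators LRIG1 and ERRFI1, at 0.81 and 0.43. AREG, the ligand amphiregulin, stood at 16.4, 16.7 and 18.5 TPM in Control and at 50.4 and 51.6 TPM in C9ko (1.52 ± 0.08, adjusted p = 3.77e-05), and the ligands EREG, HBEGF and TGFA rose by 1.501, 1.22 and 0.69. The receptor EGFR was not called, at 265, 285 and 350 TPM in Control and 219 and 364 TPM in C9ko. Of 15 Notch pathway genes, 7 were lower and 3 higher (median -0.28), or 7 lower and 1 higher under median-of-ratios scaling. The share higher was near the 22.0% of all tested genes, and the share lower was above their 7.42%. Fewer of the 15 were called without C9ko replicate 1. The target NRARP stood at 118, 108 and 128 TPM in Control and at 44.4 and 47.6 TPM in C9ko (-1.34 ± 0.09), the receptor NOTCH3 at 56.4, 59.0 and 64.8 TPM against 28.8 and 30.3 TPM, and NOTCH1 fell by 0.67. AP-1 subunits, the early-response factors of the FOS and JUN families, divided within families: FOS stood at 141, 149 and 146 TPM in Control and at 25.6 and 26.3 TPM in C9ko (-2.44 ± 0.06, adjusted p = 5.7e-06) and FOSB fell by 1.71, whereas FOSL1 rose from 77.3, 72.1 and 74.3 TPM to 182 and 183 TPM (1.28 ± 0.06) and JUN rose by 1.13. JUNB fell by 0.52.

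Of 36 tested genes of mitosis and G2/M, 26 were higher and none lower (median 0.30 against 0.11), or 14 under median-of-ratios scaling. The count was 15 without C9ko replicate 1 and 8 without C9ko replicate 2. ANLN, the cytokinesis protein anillin, stood at 110, 108 and 113 TPM in Control and at 168 and 174 TPM in C9ko (0.63 ± 0.06, adjusted p = 0.000439), and the proliferation marker MKI67 at 38.5, 40.3 and 41.4 TPM against 50.97 and 50.5 TPM (0.33, adjusted p = 0.00832, and 0.0517 under median-of-ratios scaling). All 36 were higher in C9ko than in A2ko, where the list's median difference from Control was -0.52. Of 35 genes of DNA replication and G1/S, 16 were higher and none lower (median 0.22), or 10 under median-of-ratios scaling, 9 without C9ko replicate 1 and 8 without C9ko replicate 2. PCNA, the replication clamp, stood at 333, 270 and 282 TPM in Control and at 484 and 534 TPM in C9ko (0.79 ± 0.10). Of 26 D-type cyclins, CDK inhibitors and related stress-response genes, 12 were higher and 3 lower, and 8 were called in all without C9ko replicate 2. After CCND2, BBC3, a pro-death member of the BCL2 family, rose by 1.26, and CCND1, cyclin D1, rose from 93.0, 89.7 and 92.3 TPM to 156 and 166 TPM (0.80 ± 0.06). MDM2, a ubiquitin ligase, was not called (0.01).

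Markers of cell types that a pure line should lack moved with the immune genes in part. The 12 leukocyte markers summed to 43.3 to 51.6 TPM in Control and 67.2 to 68.6 TPM in C9ko, 4 or 5 of them at 0 in each library. CD3D and MS4A1 were at 0 in every library and PTPRC, the pan-leukocyte antigen, stood at 0.0232 TPM or less, and the 2 above 1 TPM in Control were CD14 and CD68. CD14, a receptor for bacterial lipopolysaccharide, rose from 15.1, 14.3 and 17.9 TPM to 52.5 and 50.9 TPM (1.66 ± 0.10), and CD68, a lysosomal protein of macrophages, fell from 29.3, 27.8 and 32.2 TPM to 14.1 and 14.3 TPM. Fibroblast markers summed to 10.8 to 12.3 TPM in Control and 11.2 to 12.2 TPM in C9ko, with 1 to 5 of 10 at 0, COL3A1 in every library. Endothelial markers summed to 3.66 to 4.66 TPM in Control and 22.3 to 30.4 TPM in C9ko, with 2 to 4 of 8 at 0, KDR and EMCN in every library, and CDH5, the endothelial cadherin, was the only one at 1 TPM or more, rising from 4.27, 3.61 and 3.21 TPM to 21.9 and 29.9 TPM (2.51 ± 0.15, adjusted p = 8.35e-05). Their part in the immune results was not tested, and in bulk RNA a change in the number of cells of a type and a change in RNA per cell cannot be told apart.

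Chromosome 3 had the highest share of genes called higher of any chromosome, 47.8% against 22.0% of all tested genes. Positions are those of GENCODE 29 on GRCh38. A running median over 51 neighbouring tested genes, less the median of all tested genes, stayed at 0.25 or more in both C9ko libraries over 4 stretches of at least 20 genes, all of them higher. The longest covered chr3:9890572-64024010, where 291 of 341 tested genes were called higher and 3 lower, and the median was 0.74 in C9ko replicate 1 and 0.77 in C9ko replicate 2, against 0.12 in A8ko and 0.01 in A2ko. On chr9:6011043-40106611, 88 of 136 genes were higher and 2 lower (0.41 and 0.38 in the C9ko libraries). On chr12:95657807-106987166, 38 of 57 were higher and none lower (0.40 and 0.46). On chr20:2652145-17565851, 36 of 63 were higher and 1 lower (0.34 and 0.29). No such stretch was found in any of the Control libraries set against the other Control libraries. The stretches were chosen on these same differences, so the counts within them only describe them. The labels give no DNA copy number, and its part was not tested.

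**Figure D5:**
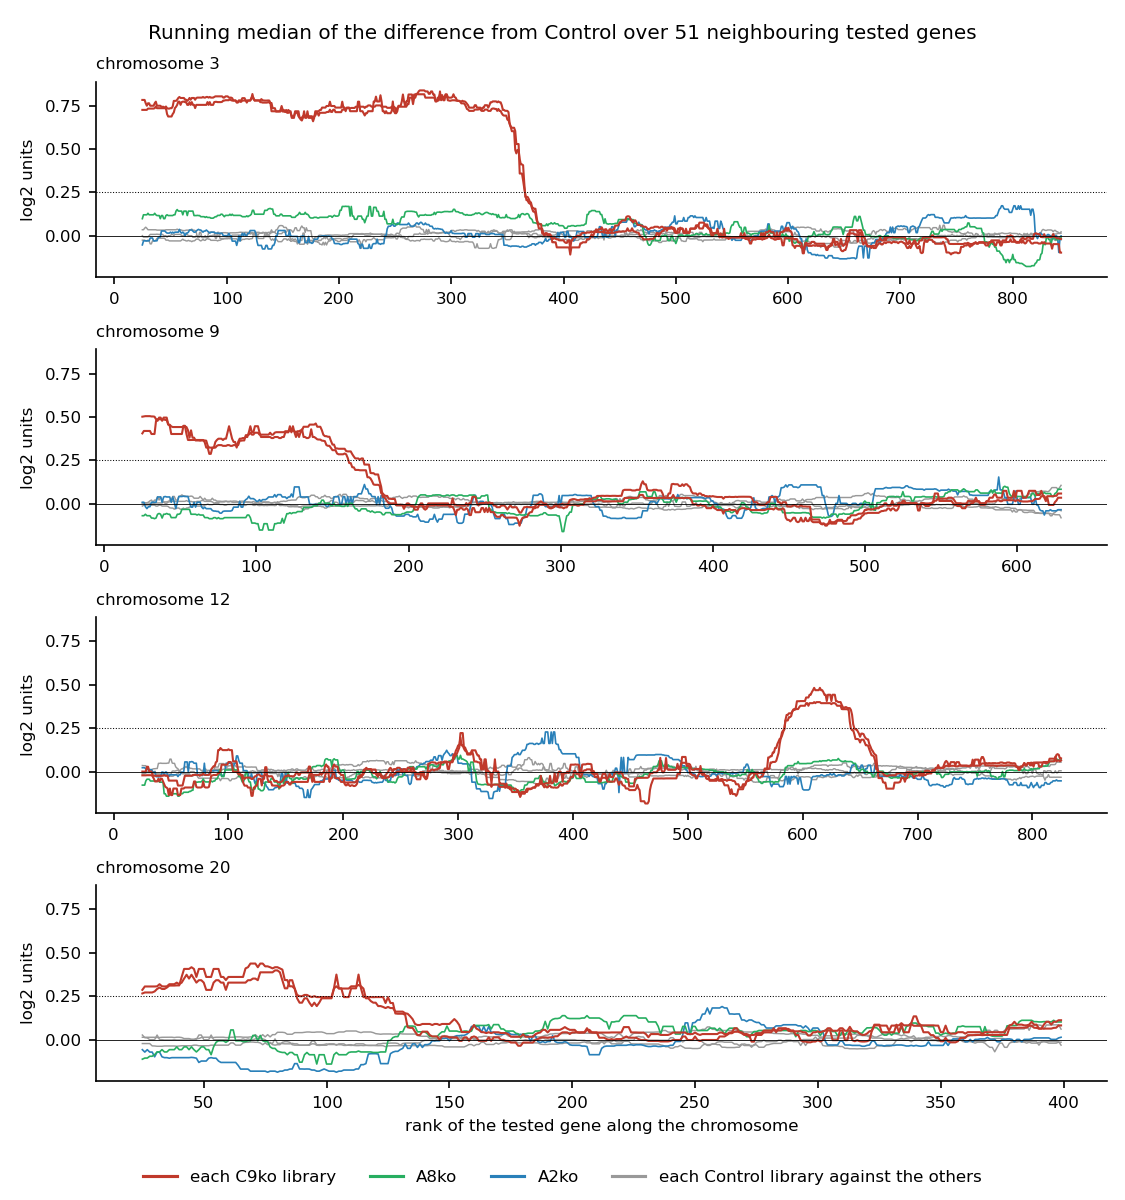
Running median over 51 neighbouring tested genes of the difference from Control, less the median of all genes (log2 units), by rank of the gene along chromosomes 3, 9, 12 and 20, with each C9ko library in red, A8ko in green, A2ko in blue and each Control library against the other Control libraries in grey. The dotted line marks 0.25. Both C9ko lines run together above it at the left of chromosome 3 and return to 0 near the same gene, while the other libraries stay below it there.

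Within the stretch on chromosome 3, the largest called differences were LTF at 2.80, RFTN1 at 2.65 and C3orf14 at 2.07 log2 units. RFTN1, a lipid raft protein, stood at 2.01, 2.24 and 1.79 TPM in Control and at 18.0 and 17.9 TPM in C9ko. On chromosome 9 the largest was a fall: AQP3, the water and glycerol channel of basal keratinocytes, stood at 654, 625 and 584 TPM in Control and at 144 and 147 TPM in C9ko (-2.09 ± 0.07, adjusted p = 1.22e-05) amid neighbours that were higher. ELAVL2, an RNA-binding protein, rose there by 1.72, and CA9, a carbonic anhydrase known to respond to hypoxia, by 1.65. On chromosome 12, NUAK1, a kinase of the AMPK family, rose from 2.84, 2.87 and 3.52 TPM to 15.8 and 15.9 TPM, DRAM1, a lysosomal protein of autophagy, by 2.04 and CHST11, a chondroitin sulfotransferase, by 1.76. On chromosome 20, PLCB4, a phospholipase C, rose by 1.80, and SLC4A11, a membrane transporter, and RNF24 by 1.17 and 1.08. Of the cytokine, NF-kB, defence, interferon, HLA class II and keratin lists, only IRAK2, LTF and RIGI lie in the stretches. Setting stretch genes aside could therefore hardly change their counts. Outside the stretches, 19 of 24 cytokines, 16 of 21 NF-kB genes and 16 of 22 acute phase and defence genes were higher. So were 31 of 42 interferon genes, 12 of 13 HLA class II genes and 3317 of all 16503 tested genes there. Keratin counts were the same. The part of the stretches in the list results was not tested.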

How the data were processed

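RNA-seq was analysed in 5 samples of CAL27 cells, 3 Control and 2 C9ko, with the other 4 samples of the series in the same fit. The authors deposited TPM values per Ensembl gene for each sample, which are shares of a fixed total, so the sequencing depth is unknown and no count test was run. Per the submitters' processing notes the build was hg38, and the aligner, counter, annotation and use of strand are not given in the sources used here. Symbols came from a table of identifiers (42165 of 78894 matched), positions from GENCODE 29 and promoters from RefSeq. Identical files were averaged to 1 library, leaving 7.

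Values were tested as log2(TPM + 1), which understates changes of weakly expressed genes, for genes with at least 1 TPM in at least 2 libraries. Some genes passed through 1 group only, such as SOX2, FOXN1, KRT3, IVL, SBSN and SPINK5 through Control. CASP14, LTF and PIGR passed through C9ko only. Such genes could hardly be called in the other direction, and the list counts include them. limma 3.58.1 in R 4.3.3 fitted the 4 groups (lmFit, contrasts, eBayes with a mean-variance trend), and p-values were adjusted by Benjamini-Hochberg across the 17100 genes, with a threshold of 0.05. Errors beside differences are standard errors of that fit, over 3 Control and 2 C9ko libraries. Nothing says that replicates came from separate cultures, so p-values measure the spread between these libraries, which may be technical. On simulated data with 200 of 17100 genes changed, 82.5%, 99.5% and 100% of changes of 0.5, 1 and 2 log2 units were recovered. Of the calls there, 0.602%, 2.45% and 1.96% were false. The simulation gave every group independent noise with the spread of the Control libraries. In the data the C9ko pair differed by more (SD 0.349, against 0.276 to 0.285 within Control) and 5038 genes were called. The simulated shares therefore do not carry over to these data.

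Members and the 36 gene lists were chosen with earlier results of these data known, and lists are described by counts and medians with no set test. Genes named by rule had a symbol, an adjusted p under 0.05 and both C9ko libraries beyond all Control libraries: the 12 largest rises and falls with at least 5 TPM in the higher group, the 3 largest rises and falls in TPM, up to 4 called members of each list whatever their level, and 3 genes in each stretch, with SOX2, KRT4, KRT13, CSF2 and C15orf48 as reference. This gave 153 genes, of which some are not reported here. Other genes were named after their values were seen, as examples within lists. Alternatives changed the pseudocount, filter, scaling, trend, libraries and replicate block.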

Additional observations from a re-analysis of the deposited data

Results flagged for a closer look

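For 9 named genes, C9ko and another knockout lay on opposite sides of Control, the other knockout by at least 1 log2 unit. The contrast between them also passed the threshold in limma. The named genes were chosen for a called difference of C9ko from Control. With the other knockout far on the opposite side, passing was close to fixed in advance and adds no support. Each of the 9 rests on a single distinct A8ko or A2ko library, assumed to vary like the other groups, and the contrasts share the Control libraries. The 9, and the counts that follow, are out of the 153 named genes. The share of all tested genes that meets the conditions was not computed, so the counts only describe the named genes. With no limit on the other knockout's distance from Control, 11 named genes met the same conditions against A8ko and 48 against A2ko.

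Against A8ko, CCL2 was 5.24 log2 units higher in C9ko (1432 and 1466 TPM against 37.4 TPM, with 118 to 136 TPM in Control). RSAD2 was 3.003 and CMPK2 3.01 log2 units higher in C9ko than in A8ko, where they stood at 2.97 and 2.66 TPM, below every Control library. CD68 differed from A8ko by -2.15 log2 units, with 14.1 and 14.3 TPM in C9ko, 27.8 to 32.2 TPM in Control and 66.3 TPM in A8ko.

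Against A2ko, the matrix proteases MMP13 and MMP10 differed by -6.00 and -6.07 log2 units, as MMP13 stood at 602 TPM and MMP10 at 263 TPM in A2ko and at under 9 and 4 TPM in C9ko. ATP6V1B1 differed by -4.28 log2 units, with 22.1 TPM in A2ko. CXCL11 was 3.85 log2 units higher in C9ko than in A2ko, where it stood at 2.78 TPM, and KLK9 2.81 log2 units higher, with 91.8 and 84.6 TPM in C9ko and 11.7 TPM in A2ko.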

How the results depend on the processing

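The count of called genes, 5038, lay between 3511 and 5079 under the alternatives of filter, pseudocount, trend, scaling and fitted libraries. Leaving out 1 library at a time gave 3301 to 4174 called genes, the lowest without C9ko replicate 2, and 855 to 964 genes at 1 log2 unit or more. The count at that size, 850, moved to 1366 with a pseudocount of 0.1 and 320 with 5. With the replicate block 3248 genes were called, and 901 of them by at least 1 log2 unit. Same-numbered libraries did not deviate together (correlations of -0.0529 and -0.0124). The deviations of 2 C9ko libraries from their mean mirror each other, so this check cannot show whether same-numbered samples were prepared together. Of 153 named genes, 134 kept their call under every alternative run, and 65 of 2135 values, in 19 genes, no longer passed the threshold, with 0 reversed. Of 51 further genes named as examples, 8 lost their call under an alternative and 0 reversed. TPM keeps no depth, so limits set by depth could not be given.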

Other observations

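Of 34 tested genes of glycolysis and hypoxia, 13 were higher and 4 lower (8 lower under median-of-ratios scaling). ANGPTL4, a lipoprotein lipase inhibitor, stood at 1.06, 1.21 and 1.75 TPM in Control and at 5.13 and 6.52 TPM in C9ko (1.55 ± 0.17 log2 units), and VEGFA, the angiogenic factor, rose by 0.79, while the glucose transporter SLC2A1 was not called (0.02). Of 32 sterol and lipid synthesis genes, 15 were higher and 2 lower, with 11 called in all without C9ko replicate 1 and 8 without C9ko replicate 2. NRF2 targets, which detoxify oxidants, were lower for 10 of 27 and higher for 4: PIR fell by 1.38 and SLC7A11, the cystine transporter, by 0.90, HMOX1 rose by 0.62, and NQO1 was not called (-0.04). AKR1C2 and AKR1C3, near-identical paralogues, fell by 1.24 and 1.19. The share of NRF2 targets called higher was below the 22.0% of all tested genes, and the share lower was above their 7.42%. Chaperones and sensors of the endoplasmic reticulum were higher for 14 of 24, led by EDEM1 and MANF (1.21 and 1.26, both on chromosome 3), and lower for 3: ASNS, asparagine synthetase, from 67.0, 61.4 and 63.7 TPM to 18.99 and 19.13 TPM, CHAC1 by 1.46 and DDIT3 by 0.60.

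Respiratory chain and proteasome counts depended on the scaling. Of 48 nuclear respiratory chain genes, 3 were higher and 6 lower, or 2 and 18 under median-of-ratios scaling, and NDUFA4, the relative of C15orf48, fell from 334, 381 and 299 TPM to 237 and 261 TPM (-0.43 ± 0.11, adjusted p = 0.0251, limma, and 0.0538 to 0.120 without C9ko replicate 1, C9ko replicate 2 or Control replicate 1). Without C9ko replicate 1, 4 of the 48 were called. Of 31 proteasome genes, 1 was higher and 9 lower, or 1 and 21 under that scaling, and 2 to 4 were called in all when C9ko replicate 1 or 2 or Control replicate 1 or 3 was left out. The 1 that rose, PSMD6, lies in the chromosome 3 stretch. Of 13 mitochondrially encoded genes, 3 were lower, and 0 to 1 were called by limma without C9ko replicate 1, C9ko replicate 2, Control replicate 2 or Control replicate 3.

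Among 15 tested imprinted genes, 4 were higher and 2 lower, close to the 22.0% and 7.42% of all tested genes. H19, a non-coding RNA expressed from the maternal copy, stood at 21.4, 19.5 and 19.2 TPM in Control and at 2.04 and 2.17 TPM in C9ko, 1.77 TPM in A2ko and 0.819 TPM in A8ko. SNRPN stood at 6.17, 6.15 and 6.40 TPM in Control, 0.0985 and 0.0283 TPM in C9ko and 0.0822 TPM in A2ko, and was listed at 0 in A8ko; it shares its strand with the overlapping SNURF, which makes the value uncertain. Of 9 genes of the 11q13 region, often amplified in this cancer, ANO1 fell from 43.9, 43.4 and 42.5 TPM to 5.47 and 5.90 TPM, CCND1 was higher, and the other 7 were not called. Of 6 tested metallothionein and zinc genes, 3 were higher and 2 lower, with MT2A at 0.62 and MT1X at -0.74, and MT1X had an adjusted p of 0.0505 without Control replicate 3.

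Some large differences came from 1 C9ko library and were not called. BEST1 stood at 621, 519 and 611 TPM in Control and at 9.34 and 568 TPM in C9ko, MIF-AS1 at 183, 185 and 247 TPM against 3.46 and 247 TPM, and TUBA1B-AS1 at 1.42, 0.594 and 0.775 TPM against 134 and 0.660 TPM. These were picked after their values were seen. KRT87P, a keratin pseudogene, was listed at 0 in all Control, A2ko and A8ko libraries and stood at 2.29 and 2.20 TPM in C9ko. It overlaps KRT7, which rose in C9ko, on the other strand. The use of strand in counting is not given, so the KRT87P value is uncertain. Among gene types, 26.4% of tested protein-coding genes and 12.3% of long non-coding genes were called higher, and 7.34% and 7.59% lower.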
